A study of Mus musculus with 12 samples.

Results

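The genes described here are those of the mouse major histocompatibility complex (MHC) and of the machinery that prepares peptides for it. They were chosen by symbol, as the 43 genes whose symbol starts with H2- plus B2m, Tap1, Tap2, Tapbp, Psmb8, Psmb9, Psmb10, Psme1, Psme2, Erap1, Nlrc5, Ciita and Cd74. That gave 56 members among 24421 genes, of which 32 averaged 0.5 FPKM or more across the 12 libraries and were tested. FPKM are fragments scaled by transcript length and library total. The other 24 members were below that mean. Among the 32 members tested, Nlrc5, Ciita and H2-DMb2 had a wild type mean under 0.5 FPKM and passed through the TRAMP libraries.

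MHC class I molecules are heavy chains that pair with the light chain beta-2-microglobulin and carry peptides from inside the cell to its surface, where CD8 T cells read them. The peptides are cut by the proteasome, whose catalytic subunits can be exchanged for immunoproteasome subunits, then pumped into the endoplasmic reticulum by the TAP transporter and loaded with the help of tapasin. Class II molecules are alpha and beta chains that carry peptides from taken-up proteins, are found mainly on macrophages, dendritic cells and B cells, and are guarded by the invariant chain Cd74 until exchange factors load them. The transactivator NLRC5 serves class I promoters and CIITA serves class II promoters, and interferons are known to raise both sets.

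RNA sequencing was done on total RNA from snap-frozen ventral and dorsolateral prostate lobes of mice, and on 1 tumor whose lobe is unknown. TRAMP mice (C57BL/6-Tg(TRAMP)8247Ng/J) carry SV40 T antigen under the probasin promoter, which is active in prostate epithelium, and all groups but the wild type share that transgene. Control AIN93M diet was given to wild type C57BL/6 mice at 16 weeks of age (1 library) and 24 weeks (2 libraries), and to TRAMP mice at 16 and 24 weeks (2 libraries each). The same diet with 0.05% (w/w) PEITC, phenethyl isothiocyanate, a compound of cruciferous vegetables, was given to TRAMP mice at 16 and 24 weeks (2 libraries each). The tumor came from a TRAMP mouse on control diet at 24 weeks. The labels do not say how many animals made a library, so p-values measure the spread between these libraries, which may in part be technical. The 24-week TRAMP libraries on control diet serve in the comparisons with wild type, with PEITC, with 16 weeks and with the tumor, so these comparisons are not independent.

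Between 17113 and 18505 genes were above 0 in a library, and depth relative to the deepest library ranged from 0.635 to 1. The tissue label fits the summed level of 5 prostate secretory genes, which was 22173 to 25947 FPKM in wild type, 2973 to 6594 FPKM in TRAMP prostate libraries and 2049 FPKM for the tumor. The 16-week wild type library stands apart by seminal vesicle transcripts, whose summed level was 7800 FPKM there and at most 8.02 FPKM in any other library. One 24-week PEITC library (replicate 1) stands apart by the neuroendocrine gene Chga, at 12.4 FPKM against 0.0897 to 0.958 FPKM elsewhere.

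TRAMP prostates on control diet were compared with wild type prostates to ask what the transgene changes. At 24 weeks 26 of the 32 members tested rose and 2 fell (limma, Benjamini-Hochberg adjusted p under 0.05 over all genes), where 23% of all 13375 genes tested were called higher and 22% lower (45% in either direction). The member median was a log2 fold change of 1.13, against -0.0007 over all genes. B2m, every class I chain tested except H2-Q10, the TAP transporter and the immunoproteasome rose, whereas class II genes gave calls that depended on single libraries. With every library kept, those class II calls also ended without the mean filter and with only the groups compared. The 2 members that fell were H2-Q10, a class Ib chain, and H2-Ke6, which encodes no MHC chain. In 28 of the 32 members all 8 TRAMP prostates lay above all 3 wild type libraries (23% of all genes did so), and in H2-Q10 and H2-Ke6 they lay below (21.3% of all genes). Only H2-DMa and H2-DMb2 overlapped. Members that passed the filter through the TRAMP libraries are in these counts: Nlrc5 and H2-DMb2 among the 26 that rose, Nlrc5 and Ciita among the 28 that lay above. The sum of 4 smooth muscle markers was 629 to 739 FPKM in wild type and 226 to 539 FPKM in TRAMP prostates, all 4 called lower at 24 weeks, and its part in these results was not tested. Fold changes here are differences of log2(FPKM + 1), which understates the change of genes with low values.

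**Figure D1:**
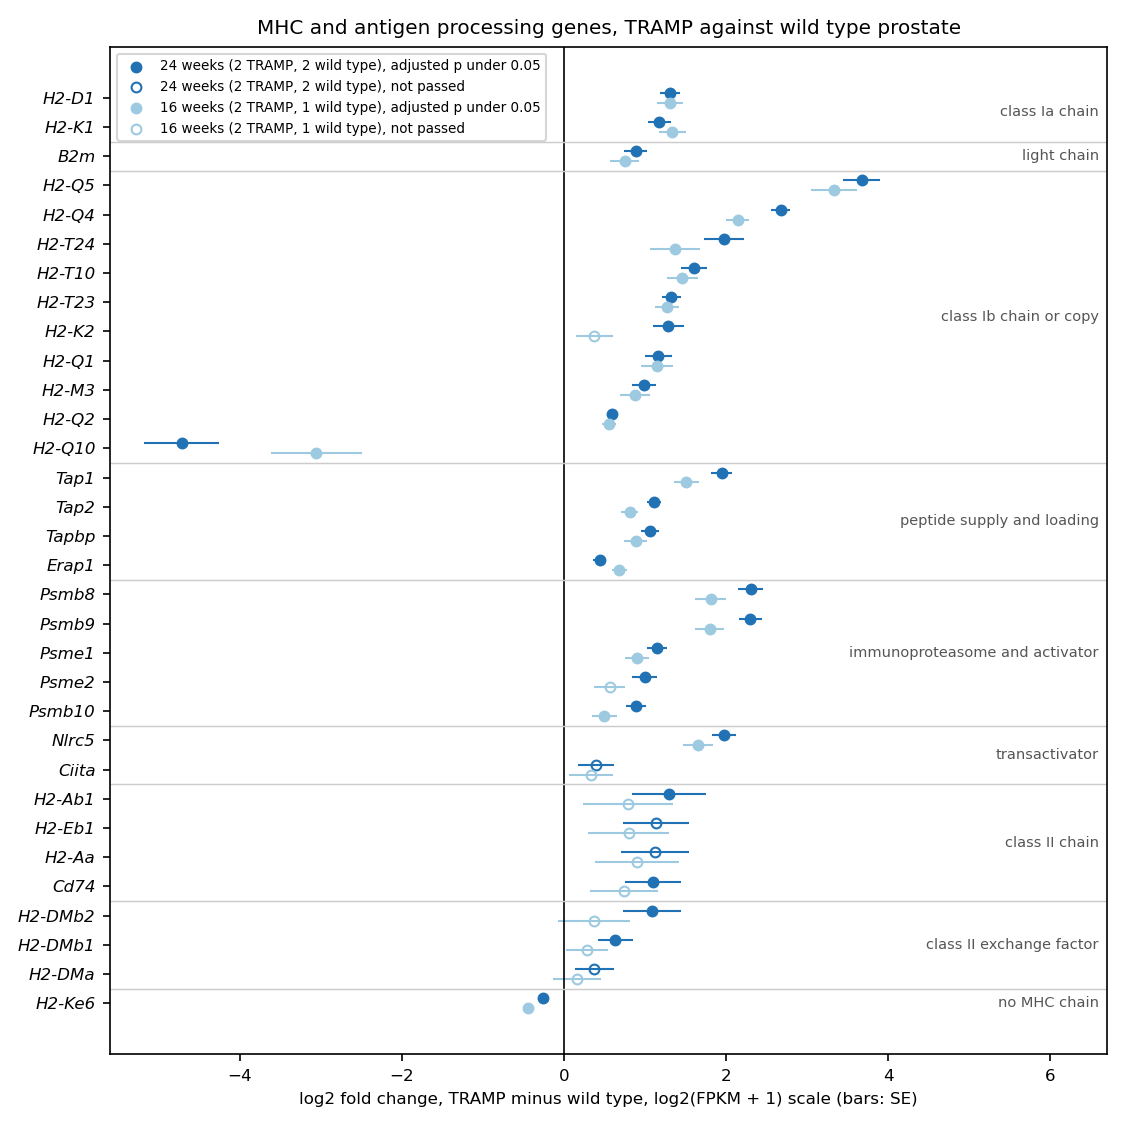
Log2 fold changes (x axis, log2(FPKM + 1) scale, bars show SE) of the 32 members tested, grouped by role, for TRAMP against wild type prostate on control diet at 24 weeks (dark) and 16 weeks (light). Filled points passed an adjusted p under 0.05. H2-Q5 lies farthest to the right (3.67 at 24 weeks) and H2-Q10 farthest to the left (-4.72), and class II chain genes have the longest bars among the genes that were higher.

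In the sentences that follow, values are listed library by library, for wild type at 16 weeks, then 24 weeks (2 libraries), and for TRAMP on control diet at 16 weeks (2 libraries), then 24 weeks (2 libraries). Log2 fold changes are for 24 weeks unless 16 weeks is named.

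The class Ia chains H2-K1 and H2-D1, which present peptides to most CD8 T cells, were higher in TRAMP. H2-K1 (chr17:33996017-34000347, minus strand) stood at 554, 658 and 587 FPKM in wild type and 1438, 1367, 1221 and 1623 FPKM in TRAMP. Its 24-week means were 623 ± 50.6 FPKM in wild type and 1422 ± 285 in TRAMP (SD, n = 2 each), which is a log2 difference of 1.18 (SE 0.14, adjusted p = 0.000373). H2-D1 (chr17:35262730-35267499, plus strand) stood at 110.2, 109 and 99.6 FPKM in wild type and 291, 259, 226 and 297 FPKM in TRAMP, a log2 difference of 1.31 (SE 0.13, adjusted p = 0.000166). In both genes every TRAMP library was above every wild type library. The ratio of H2-D1 to H2-K1 FPKM was 0.165 to 0.199 in wild type and 0.175 to 0.202 in TRAMP prostates, ranges that overlap. B2m, the light chain (chr2:122147686-122153083, plus strand), stood at 835, 700.4 and 674 FPKM in wild type and 1491, 1326, 1087 and 1478 FPKM in TRAMP. It rose by a log2 difference of 0.88 (SE 0.15, adjusted p = 0.00205), and its lowest TRAMP library was the 24-week replicate 0. H2-K1 and B2m were close in level, with an H2-K1 to B2m ratio of 0.663 to 0.94 in wild type and 0.964 to 1.22 in TRAMP prostates. Relative to Epcam, an epithelial surface gene, H2-K1 was 1.54 to 1.61 in wild type and 2.53 to 3.29 in TRAMP prostates, so the groups did not overlap on that scale. Epcam itself differed, at 352 to 429 FPKM in wild type and 473 to 559 FPKM in TRAMP prostates. The epithelial genes Cdh1, Krt8 and Krt18 overlapped between the groups, and H2-K1 was not set against them. Relative to Ptprc, a leukocyte gene, H2-K1 was 516 to 631 in wild type and 283 to 712 in TRAMP prostates, ranges that overlap. In bulk tissue fewer cells of a type and less RNA per cell cannot be told apart.

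Promoter sequences (RefSeq, build GRCm38.p6, the 250 bases before the start) were found for 40 of the 56 members. The stretches below are shown because some class I genes that rose carry an upstream element close to that of H2-Q10, the one that fell. Capitals mark the best match to a kappaB-type element, which is spelled out by the capitals of the H2-K1 line and was searched on both strands. An exact match was found in H2-K1, H2-D1 and H2-Q6 and in 0.0222% of the promoters of 27025 genes. H2-Q4 had 1 mismatch (0.525% of promoters were at least this close) and H2-Q10 had 2 (5.75%). The element does not run through all class I genes that rose: H2-M3, not shown, had 1 mismatch, but H2-T23 and H2-Q2 had 4, which 88.8% of all promoters reach. The H2-D1 stretch is short because an exon of a longer GENCODE transcript covers it.
H2-K1: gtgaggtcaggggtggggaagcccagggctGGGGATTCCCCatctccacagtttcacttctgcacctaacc
H2-D1: cccagggctGGGGATTCCCCatctcctca
H2-Q6: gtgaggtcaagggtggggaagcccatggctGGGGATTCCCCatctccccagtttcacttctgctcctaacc
H2-Q4: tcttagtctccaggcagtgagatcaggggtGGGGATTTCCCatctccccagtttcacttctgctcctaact
H2-Q10: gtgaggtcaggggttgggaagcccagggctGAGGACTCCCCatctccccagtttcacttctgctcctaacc
They lie at chr17:34000418-34000488 (minus strand), chr17:35262914-35262942, chr17:35424647-35424717, chr17:35379413-35379483 and chr17:35469883-35469953 (plus strand), in the same order, and read 5′ to 3′ along the gene. Over 71 positions around the capitals, H2-D1 was identical to H2-K1 at 70, H2-Q6 at 67, H2-Q10 at 66 and H2-Q4 at 50. Positions were compared 1 by 1 with no gaps. The H2-Q4 bases just before its capitals resemble the start of the H2-K1 line, so a shift may lower the H2-Q4 count. All 5 promoters share the 15-base run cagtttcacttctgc just after the capitals (in H2-D1 beyond the stretch shown), a run found in 6 promoters in all, those 5 and H2-Q7. The listed levels of these 5 genes were not alike: H2-K1, H2-D1 and H2-Q4 rose, H2-Q10 fell and H2-Q6 was at 0 FPKM in every library. That value of 0 is uncertain, because H2-Q6 shares stretches with other genes. A match is a description of letters and not a measured binding site.

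Class Ib chains are class I-like molecules with narrower or specialised roles. Of 30 class Ib symbols and copies, 10 were tested, of which 9 rose and H2-Q10 fell. H2-Q4 (chr17:35379617-35385290, plus strand), also known as Qb1, stood at 24.9, 22.8 and 19.0 FPKM in wild type and 119, 108, 129 and 148 FPKM in TRAMP. It rose by 2.68 (SE 0.12, adjusted p = 4.95e-06), the smallest adjusted p among the members. Its ratio to H2-K1 went from 0.0324 to 0.045 in wild type to 0.0791 to 0.105 in TRAMP prostates, so relative to wild type H2-Q4 was higher by more than H2-K1 in every TRAMP prostate. H2-Q5 (chr17:35394126-35397800, plus strand), annotated as a polymorphic pseudogene, stood at 0.959, 0.894 and 0.534 FPKM in wild type and 19.6, 17.8, 17.4 and 24.7 FPKM in TRAMP. It had the largest rise of the members, 3.67 (SE 0.23, adjusted p = 2.45e-05), from near 1 FPKM or less to between 15.2 and 24.7 FPKM over the 8 TRAMP prostates.

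H2-T23, which encodes Qa-1, a ligand of NK cell receptors, had the highest mean of the class Ib genes over the 12 libraries, although H2-Q10 was above it in the 16-week wild type library. It stood at 156, 161 and 153 FPKM in wild type and 413, 345, 377 and 413 FPKM in TRAMP, a log2 difference of 1.32 (SE 0.12, adjusted p = 0.000122). H2-T24 stood at 3.68, 3.01 and 2.62 FPKM in wild type and 13.4, 9.099, 13.0 and 15.02 FPKM in TRAMP and rose by 1.97 (SE 0.25, adjusted p = 0.000554). In H2-T23 and H2-T24 no TRAMP library reached down to the wild type range. H2-T10, annotated as a polymorphic pseudogene, stood at 1.16, 1.33 and 1.24 FPKM in wild type and 4.46, 5.45, 5.203 and 6.78 FPKM in TRAMP and rose by 1.60 (SE 0.16, adjusted p = 0.000181). H2-Q1 stood at 3.14, 3.08 and 3.43 FPKM in wild type and 7.84, 8.496, 7.401 and 9.79 FPKM in TRAMP, a log2 difference of 1.16 (SE 0.16, adjusted p = 0.000959). H2-K2, a transcribed pseudogene next to H2-K1, stood at 2.53, 1.699 and 1.09 FPKM in wild type and 3.93, 3.25, 4.02 and 5.702 FPKM in TRAMP. It rose by 1.29 (SE 0.19, adjusted p = 0.00111) at 24 weeks but did not pass at 16 weeks (0.37, adjusted p = 0.242), where the wild type library had its highest wild type value. H2-Q2 stood at 19.1, 19.5 and 20.95 FPKM in wild type and 27.4, 29.8, 29.8 and 32.4 FPKM in TRAMP and rose by 0.60 (SE 0.07, adjusted p = 0.000323), the smallest rise of the class Ib genes. H2-M3, which presents peptides that begin with formylmethionine, ranged from 4.83 to 5.15 FPKM in wild type and from 8.8 to 12.8 FPKM in TRAMP prostates, with a log2 difference of 0.99 (SE 0.15, adjusted p = 0.00127).

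H2-Q10 (chr17:35470089-35474563, plus strand) went the other way. It encodes a class I molecule without a membrane anchor that is known as a secreted product of the liver. It stood at 160.5, 107 and 111 FPKM in wild type and 11.7, 28.7, 1.68 and 5.51 FPKM in TRAMP. Its 24-week means were 109 ± 2.799 FPKM in wild type and 3.59 ± 2.71 in TRAMP (SD, n = 2 each), which is a log2 difference of -4.72 (SE 0.46, adjusted p = 0.000168). In 24-week wild type its level was therefore close to that of H2-D1, and in 24-week TRAMP prostates it was below that of H2-Q5. The liver genes Alb and Apoa1, chosen after their values were seen, were at 0 to 0.132 FPKM and 0 to 0.102 FPKM over the 12 libraries. The summed level of the prostate secretory genes was lower in the same libraries (values above), with all 5 lower at 24 weeks, and its part in the H2-Q10 result was not tested.

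The class Ib genes are copies of one another, so their levels depend on how reads that match several genes were counted, which is not given in the sources used here. In GENCODE M21 transcripts, 14% of the 100-base stretches of H2-Q5 also occur in another gene, most of them in H2-Q7. The share was 8% for H2-Q10, 8.1% for H2-Q1, 7.1% for H2-T10, 5.1% for H2-Q2, 3.6% for H2-D1, 3.2% for H2-T23, 2.2% for H2-Q4 and 1% for H2-K1. Shares of 50-base stretches were larger: 36.4% for H2-Q5, 32.9% for H2-T10, 21.8% for H2-Q4, 19% for H2-Q10, 16.1% for H2-Q2, 15% for H2-Q1, 13.6% for H2-T23, 12.8% for H2-D1 and 9.6% for H2-K1. The read length is not given in the sources used here. H2-Q6, H2-Q7, H2-Q9, H2-T9, H2-M1, H2-M10.3 and H2-M11 were listed at 0 in all 12 libraries. H2-Q7 and H2-Q6 share 12% and 10.8% of their 100-base stretches with other genes, so a value of 0 is uncertain for them. By symbol, 52 of the 56 members were found in GENCODE M21. H2-L, H2-Q8, H2-Q9 and H2-T9 were not, so stretches shared with them were not counted under those symbols. The shares above may therefore be too low, and the values of 0 for H2-Q9 and H2-T9 are uncertain as well. The other 13 class Ib symbols below the mean of 0.5 FPKM, among them H2-T22, H2-T3 and the H2-M10 copies, had single values up to 0.284 FPKM. Just inside that mean was Ciita, at 0.538 FPKM over the 12 libraries, and just outside was H2-Ob, at 0.284 FPKM.

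All 4 genes of peptide supply and loading rose at both ages. Tap1 (chr17:34187553-34197225, plus strand) stood at 15.8, 14.7 and 13.03 FPKM in wild type and 50.2, 43.6, 52.5 and 60.02 FPKM in TRAMP, a log2 difference of 1.95 (SE 0.13, adjusted p = 2.67e-05). Tap2, its partner chain in the transporter, stood at 34.9, 37.7 and 34.98 FPKM in wild type and 65.2, 58.99, 81.7 and 77.4 FPKM in TRAMP and rose by 1.11 (SE 0.08, adjusted p = 5.27e-05). The Tap1 to Tap2 ratio was 0.373 to 0.452 in wild type and 0.643 to 0.839 in TRAMP prostates, so Tap1 was higher by more than its partner. Tapbp, tapasin, stood at 96.2, 104 and 87.9 FPKM in wild type and 184, 172, 198 and 201 FPKM in TRAMP, with a log2 difference of 1.06 (SE 0.11, adjusted p = 0.000251). Erap1, the aminopeptidase that trims peptides in the endoplasmic reticulum, stood at 23.03, 24.5 and 24.2 FPKM in wild type and 36.7, 38.5, 35.2 and 31.7 FPKM in TRAMP and rose by 0.44 (SE 0.08, adjusted p = 0.00305). None of the 4 genes overlapped between TRAMP and wild type. Among 5 other folding and loading partners, 1 rose and 4 fell at 24 weeks: Tapbpl, a peptide editor, rose by 1.07, whereas the chaperone Hspa5 fell by 0.997, Canx fell by 0.53, Pdia3 fell by 0.37 and Calr fell by 0.34. At 16 weeks Tapbpl rose by 0.80 and the other 4 did not pass. The shares over all genes were 23% higher and 22% lower at 24 weeks, and 18.1% and 15.4% at 16 weeks.

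The 5 immunoproteasome and activator genes rose at 24 weeks. Psmb8 (chr17:34197721-34201454, plus strand), the LMP7 subunit, stood at 32.3, 32.8 and 25.1 FPKM in wild type and 128, 105, 139 and 152 FPKM in TRAMP. Psmb9, the LMP2 subunit, whose gene lies head to head with Tap1 (chr17:34181987-34187764, minus strand), stood at 25.8, 22.8 and 21.9 FPKM in wild type and 104, 81.96, 108 and 121 FPKM in TRAMP. Both rose, by 2.30 (SE 0.16, adjusted p = 3.13e-05) for Psmb8 and 2.30 (SE 0.14, adjusted p = 2.38e-05) for Psmb9, with no overlap between the groups. Psmb10, the MECL-1 subunit, stood at 41.2, 44.5 and 37.4 FPKM in wild type and 64.6, 53.1, 77.2 and 75.4 FPKM in TRAMP and rose by 0.89 (SE 0.12, adjusted p = 0.000867). Its call at 16 weeks (0.50, adjusted p = 0.0362) was lost without TRAMP 16-week replicate 0 (0.36, adjusted p = 0.121). Psme1, a subunit of the PA28 activator, stood at 113, 114 and 95.7 FPKM in wild type and 236, 191, 226 and 238 FPKM in TRAMP and rose by 1.15 (SE 0.12, adjusted p = 0.000234). Psme2, its partner, stood at 29.6, 26.4 and 21.6 FPKM in wild type and 52.4, 37.4, 48.3 and 48.8 FPKM in TRAMP. It rose by 0.99 (SE 0.16, adjusted p = 0.00174) at 24 weeks and missed the threshold at 16 weeks (0.56, adjusted p = 0.0566). For Psme2, 18.4% of the 100-base stretches also occur in Psme2b, so its level is less certain than that of Psme1.

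The subunits that immunoproteasome subunits replace gave log2 fold changes of -0.11 for Psmb5, -0.05 for Psmb6 and 0.01 for Psmb7 at 24 weeks, none of which passed. Of 16 constitutive proteasome genes 4 rose and 1 fell at 24 weeks, with a median of -0.02, and 2 rose at 16 weeks. Over all genes 23% were called higher and 22% lower at 24 weeks, and 18.1% higher at 16 weeks. The Psmb8 to Psmb5 ratio was 0.321 to 0.4 in wild type, 1.57 to 1.98 in the TRAMP prostate libraries, and the tumor had 2.05. The Psmb9 to Psmb6 ratio was 0.156 to 0.171, 0.668 to 0.866 and 0.682 in the same order. For Psmb10 to Psmb7 it was 0.257 to 0.304, 0.371 to 0.518 and 0.65. Psmb8 was thus below Psmb5, in FPKM, in each wild type library and above it in each TRAMP library.

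**Figure D2:**
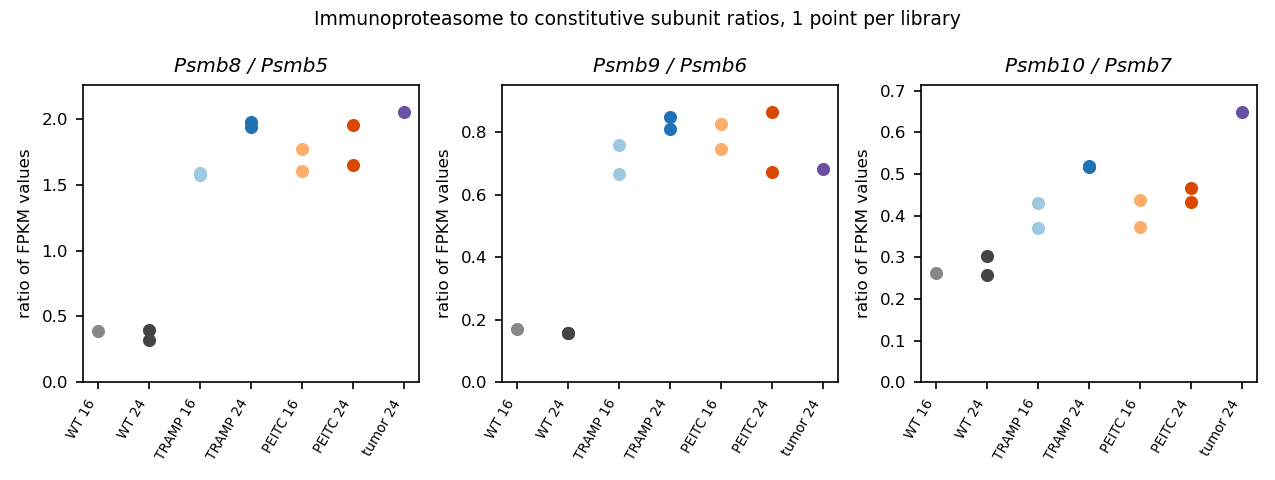
Ratio of FPKM values of each immunoproteasome subunit gene to the constitutive subunit it replaces (y axis), with 1 point per library and groups by genotype, diet (PEITC groups are TRAMP) and age in weeks on the x axis. In the left panel wild type (WT) libraries sit between 0.321 and 0.4 and TRAMP prostates between 1.57 and 1.98. The shift is smallest for Psmb10 to Psmb7.

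An interferon response element, written as GAAA, any 2 bases and GAAA again, was found in 3 of the 40 member promoters (7.5%: B2m, H2-T23 and H2-T22), against 3.04% of all promoters, and TTCNNNGAA, a gamma-activated type of site, in 4 (10%: Psmb8, H2-DMb2, H2-M3 and H2-M11), against 7.18%. Both strands were searched. Matches in capitals are shown for B2m and H2-T23 (the interferon element, in H2-T23 on the opposite strand) and Psmb8 (TTCNNNGAA), since these genes rose and were abundant. The H2-T23 and Psmb8 stretches are short because an exon of a GENCODE transcript covers them.
B2m: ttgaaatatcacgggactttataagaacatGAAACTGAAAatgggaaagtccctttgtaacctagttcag
H2-T23: tcctactgcTTTCTCTTTCataaagaca
Psmb8: cctccgctgTTCCCAGAAgatgccccc
They lie at chr2:122147518-122147587 (plus strand), chr17:36032807-36032834 (minus strand) and chr17:34198089-34198115 (plus strand). The absence of a match in the other member promoters says only that these exact letters are not in these windows. Other spellings were not counted. The run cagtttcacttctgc of the class I promoters shown above holds TTTC, 2 bases and TTCT, where the opposite-strand search required TTTC again.

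Of the transactivators, Nlrc5, which drives class I genes, rose and Ciita did not pass. Nlrc5 stood at 0.546, 0.483 and 0.279 FPKM in wild type and 3.84, 3.91, 4.03 and 4.78 FPKM in TRAMP. Its log2 fold change was 1.97 (SE 0.15, adjusted p = 5.3e-05), and on this low gene the pseudocount sets the size: it was 3.26 with a pseudocount of 0.1 and 0.80 with 5, called in both. Ciita stood at 0.246, 0.253 and 0.256 FPKM in wild type and 0.67, 0.478, 0.297 and 1.11 FPKM in TRAMP, with the highest and the lowest TRAMP value in the same group, at 24 weeks. Its log2 fold change was 0.40 (SE 0.22, adjusted p = 0.178). It was 0.75 without TRAMP 24-week replicate 0, which leaves 1 library in that arm, the one with the highest value. All 8 TRAMP prostates were above the wild type libraries in Ciita, but the lowest was at 0.297 FPKM against 0.256 FPKM. Ciita, like Nlrc5, passed the filter only through the TRAMP libraries, which favors such an order.

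The interferon pathway was described from lists that hold no member. For comparison, 23% of all genes were called higher and 22% lower at 24 weeks, and 18.1% higher at 16 weeks. Of 17 interferon-stimulated genes 16 rose at 24 weeks and 16 at 16 weeks, with medians of 2.12 and 1.94, and the largest changes at 24 weeks were in Oasl2 (4.30), Isg15 (4.18), Usp18 (4.17) and Rsad2 (3.81). Of 15 interferon signalling genes tested, 8 rose and 2 fell at 24 weeks. Irf7, a transcription factor of the type I response, rose by 4.24 and Irf9 by 1.75, whereas the repressor Irf2 fell by 1.04. Irf1, an activator of class I genes, rose by 1.07, and Irf8 did not pass (-0.19). Ifng itself was between 0 and 0.0408 FPKM in wild type and between 0.028 and 0.224 FPKM in TRAMP prostates, too low to be tested. Of 7 RFX, NFY and CREB factors, which bind MHC promoters together with NLRC5 and CIITA, 3 rose at 24 weeks. Nfya had the largest rise (0.92 at 24 weeks and 1.41 at 16 weeks), and Rfx5 rose by 0.32 at 24 weeks.

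Class II genes were higher in TRAMP libraries on average, with a wide spread. Of the 4 class II chain genes tested, H2-Ab1 and Cd74 passed at 24 weeks, and none passed at 16 weeks. H2-Ab1, the beta chain of I-A (chr17:34257689-34269419, plus strand), stood at 37.1, 32.1 and 31.8 FPKM in wild type and 82.3, 50.98, 46.7 and 136 FPKM in TRAMP. Its log2 fold change was 1.30 (SE 0.46, adjusted p = 0.0491), just inside the threshold. H2-Aa, its alpha chain, stood at 41.3, 38.6 and 36.7 FPKM in wild type and 93.02, 65.6, 49.3 and 139 FPKM in TRAMP. H2-Eb1, the beta chain of I-E, stood at 30.04, 27.98 and 27.2 FPKM in wild type and 64.3, 43.6, 37.8 and 100.4 FPKM in TRAMP. H2-Aa (1.12, adjusted p = 0.0616) and H2-Eb1 (1.13, adjusted p = 0.0533) did not pass. With scaling that leaves out the 50 most abundant genes both passed (limma adjusted p = 0.0438 and 0.0378). Under that scaling the median of all genes was 0.09. Cd74, the invariant chain, stood at 67.2, 64.5 and 63.4 FPKM in wild type and 129.7, 97.97, 88.7 and 214 FPKM in TRAMP, with a log2 difference of 1.09 (SE 0.35, adjusted p = 0.0336). In each of these 4 genes TRAMP 24-week replicate 2 was the highest of the 12 libraries and replicate 0 the lowest of the TRAMP prostates, so the pair spans the whole TRAMP range. H2-Aa and H2-Ab1 kept to each other, with an H2-Aa to H2-Ab1 ratio of 0.989 to 1.29 over TRAMP prostates and 1.11 to 1.2 in wild type.

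The size of the class II differences depended on which 24-week TRAMP library was kept. Without TRAMP 24-week replicate 2, H2-Ab1 was at 0.53 and Cd74 at 0.47, and without replicate 0 they were at 2.06 and 1.72. Without replicate 0, H2-Aa was at 1.86 and H2-Eb1 at 1.83. Each of these fits leaves 1 library in that arm, whose spread is taken from the other groups. Leaving out either 24-week wild type library hardly moved the sizes, at 1.30 and 1.29 for H2-Ab1 and 1.11 and 1.08 for Cd74. The calls of both genes still ended, with 1 wild type library left in that arm. With every library kept, both calls also ended without the mean filter (limma adjusted p = 0.105 for H2-Ab1 and 0.0774 for Cd74). The same held with only the groups compared (0.105 and 0.101) and with a replicate block (0.365 and 0.148). For H2-Ab1 the call also ended with a pseudocount of 5 (0.0533). H2-Eb2 and H2-Ea-ps were below the mean of 0.5 FPKM, with highest values of 0.185 and 0.0421 FPKM.

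Among the class II exchange factors, H2-DMb1 and H2-DMb2 passed at 24 weeks and H2-DMa did not. H2-DMb2, a beta chain of the DM exchange factor, stood at 0.501, 0.526 and 0.229 FPKM in wild type and 1.55, 0.489, 1.19 and 2.85 FPKM in TRAMP. Its log2 fold change was 1.09 (SE 0.36, adjusted p = 0.0410), and its 16-week replicate 1 fell inside the wild type range. H2-DMb2 passed the mean filter only through the TRAMP libraries, which favors a higher TRAMP level among genes tested. H2-DMb1 ranged from 7.44 to 7.83 FPKM in wild type and from 8.17 to 15.9 FPKM in TRAMP prostates, with a log2 difference of 0.63 (SE 0.21, adjusted p = 0.0408). Without TRAMP 24-week replicate 2 these calls were lost, at 0.68 for H2-DMb2 and 0.31 for H2-DMb1. Leaving out either 24-week wild type library ended them as well, at 1.24 and 0.93 for H2-DMb2 and 0.66 and 0.61 for H2-DMb1. Each of these fits leaves 1 library in an arm. With every library kept, both calls also ended without the mean filter (limma adjusted p = 0.0851 for each gene). The same held with only the groups compared (0.0514 for H2-DMb2 and 0.0925 for H2-DMb1) and with a replicate block (0.3385 and 0.3267). H2-DMa, the alpha chain, ranged from 5.26 to 6.09 FPKM in wild type and from 5.71 to 10.1 FPKM in TRAMP prostates, ranges that overlap (0.37, adjusted p = 0.237). H2-DMb1 and H2-DMb2 share 11.3% and 10.3% of their 100-base stretches with other genes, which is all with each other. H2-Oa and H2-Ob, which restrain DM, were below the mean of 0.5 FPKM, with highest values of 0.644 and 0.741 FPKM.

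Several leukocyte marker sums were higher in TRAMP prostates too, but they did not follow the class II genes in every library. TRAMP 24-week replicate 0 had the lowest class II chain sum of the TRAMP prostates, 223 FPKM, with 25.8 FPKM of pan-leukocyte genes. TRAMP 16-week replicate 1 on control diet had 258 FPKM and 17.5 FPKM. The summed level of 9 macrophage markers was 75.3 to 113 FPKM in wild type and 131 to 403 FPKM in TRAMP prostates, highest in 24-week replicate 2. The sum of 3 pan-leukocyte genes was 9.94 to 11.8 FPKM and 17.5 to 51.01 FPKM, and that of 8 dendritic cell markers 2.34 to 3.21 FPKM and 3.70 to 11.5 FPKM. Of the dendritic cell markers, Itgax, Flt3 and Ccr7 did not overlap between the groups, whereas Batf3, Zbtb46, Xcr1, Clec9a and Cd209a did. For 5 B cell markers the sums were 0.509 to 0.766 FPKM and 0.561 to 4.62 FPKM, which overlap, and for 9 T and NK cell markers 8.31 to 15.5 FPKM and 18.2 to 35.4 FPKM. At 24 weeks 7 of 9 macrophage and 3 of 3 pan-leukocyte genes were called higher (23% of all genes were). At 16 weeks 0 of 9 and 0 of 3 were called higher (18.1% of all genes were). The part of these leukocyte genes in the class II result was not tested. Per unit of Ptprc, the pan-leukocyte phosphatase CD45, H2-Ab1 was 26.7 to 42.2 in wild type and 15.8 to 28.7 in TRAMP prostates, and Cd74 was 53.8 to 76.6 and 30.04 to 51.1. On that scale H2-Ab1 overlapped between the groups and Cd74 was lower in every TRAMP prostate than in every wild type library. The sum of 4 epithelial markers was 1629 to 1852 FPKM in wild type and 1708 to 1863 FPKM in TRAMP prostates, ranges that overlap. Of these markers only Epcam did not overlap, and it was higher in TRAMP prostates. The defining markers were low rather than absent: the B cell gene Ms4a1 reached at most 0.0718 FPKM in wild type and 0.545 FPKM in TRAMP prostates. The dendritic cell gene Flt3 was at 0 in 1 wild type library and reached 0.496 FPKM in TRAMP prostates. The macrophage gene Adgre1 was at 1.36 to 1.87 FPKM in wild type and 2.78 to 6.79 FPKM in TRAMP prostates, with no overlap.

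Over the 8 TRAMP prostates, H2-Ab1 went with Ptprc at Pearson r = 0.88 (exact permutation p = 0.0058, adjusted p = 0.0174 over 6 relations) and Spearman rho = 0.74 (exact p = 0.0458, adjusted p = 0.0917). Cd74 gave r = 0.90 (exact p = 0.00556, adjusted p = 0.0174) and rho = 0.76 (exact p = 0.0368, adjusted p = 0.0917). Without the 2 libraries farthest from the median of Ptprc, 24-week control replicate 2 and PEITC replicate 1, r was 0.58 for H2-Ab1 and 0.55 for Cd74 over 6 libraries. H2-K1 gave r = 0.61 (exact p = 0.0994, adjusted p = 0.119; rho = 0.45, exact p = 0.267), and r = 0.06 without those libraries. The other relations gave r = 0.77 for Psmb8, 0.75 for Ciita and 0.64 for Nlrc5 (adjusted exact p = 0.0356, 0.0603 and 0.12), and 0.54, 0.31 and -0.05 without the 2 libraries. After the group means were taken off, r was 0.93 for H2-Ab1, 0.91 for Cd74, 0.87 for H2-K1, 0.82 for Ciita, 0.79 for Psmb8 and 0.65 for Nlrc5. Each group is a pair of libraries whose deviations mirror each other, so these r values rest on 1 difference per group. The widest Ptprc difference was in the 24-week control pair (2.95 and 5.73 FPKM), and these r values were not tested. Leaving out the libraries farthest on Ptprc also narrows its range, and r was lower without them in all 6 genes.

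**Figure D3:**
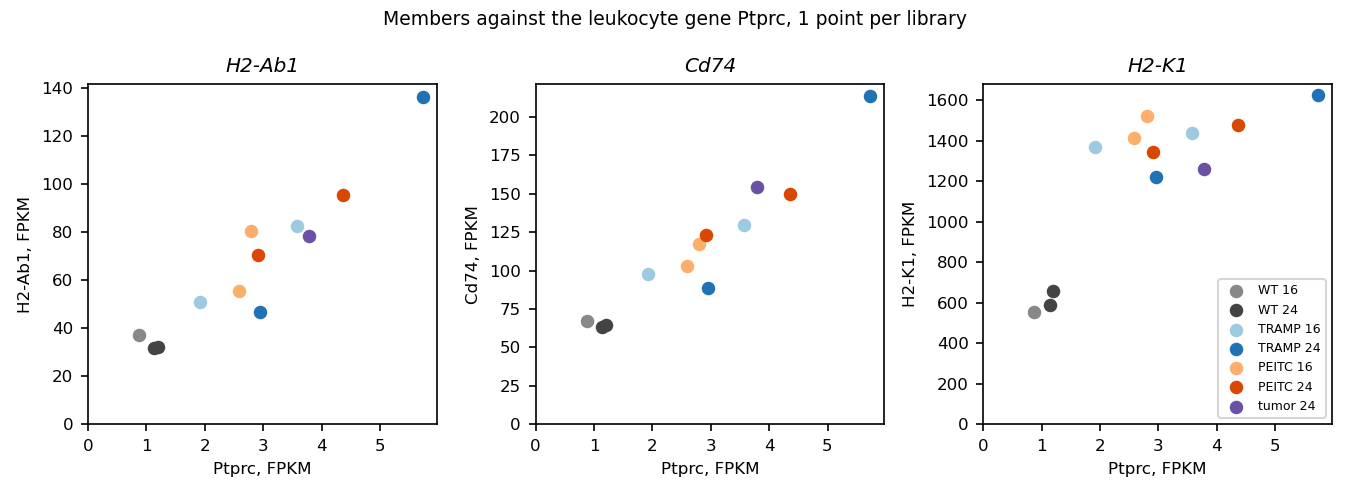
FPKM of H2-Ab1, Cd74 and H2-K1 (y axes) against FPKM of the leukocyte gene Ptprc (x axis), with 1 point per library, colored by group; WT is wild type, PEITC groups are TRAMP and numbers are ages in weeks. H2-Ab1 and Cd74 points spread along Ptprc, up to the 24-week TRAMP library with 5.73 FPKM of Ptprc. H2-K1 points form a wild type set between 554 and 658 FPKM and a TRAMP set from 1221 FPKM up.

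The X1 box, the letters that RFX factors bind, was looked for in the same windows. Its core, written as AG, any 2 bases, AC, any base and GATG and searched on both strands, was found in 9 of the 40 member promoters (22.5%), against 0.855% of all promoters. Those were H2-Oa, H2-DMb1, H2-Eb1, H2-Eb2, 4 H2-M10 copies and Psmb10. Of the class II promoters, those of H2-Aa, H2-DMa, H2-DMb2 and H2-Ob had no match. The core is in capitals for H2-Eb1, a class II chain, and H2-DMb1, an exchange factor, to show that genes of both roles carry it. An exon of a GENCODE transcript covers the H2-DMb1 stretch, which is short for that reason.
H2-Eb1: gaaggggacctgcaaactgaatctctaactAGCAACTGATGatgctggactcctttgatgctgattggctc
H2-DMb1: ggtttacctAGTAACTGATGatgctaggc
They lie at chr17:34305745-34305815 and chr17:34153087-34153115 (plus strand). The CCAAT box, which NFY binds, was in 31 of the 40 member promoters (77.5%), against 34.5% of all promoters. Of the genes with the X1 core, H2-DMb1 and Psmb10 were called higher at 24 weeks, H2-Eb1 was not, and the others were below the mean of 0.5 FPKM.

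Genes that work beside class II were described from lists fixed by function. Among all genes 23% were called higher and 22% lower at 24 weeks, and 18.1% and 15.4% at 16 weeks. Of 7 lysosomal processing genes tested, 5 rose and 2 fell at 24 weeks. Ctss, the cathepsin that degrades the invariant chain, rose by 1.61, Lgmn by 1.25 and the thiol reductase Ifi30 by 0.78, whereas Ctsl fell by 0.57. At 16 weeks 4 of them rose, with Ctss at 1.61, and 0 fell. Of 4 tested genes for costimulation and inhibitory ligands, Cd274, which encodes PD-L1, rose, by 0.59 at 24 weeks and 0.63 at 16 weeks.

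H2-Ke6 carries an H2- symbol because it lies in the complex (chr17:34026033-34028060, minus strand), but it encodes a hydroxysteroid dehydrogenase (Hsd17b8). It stood at 83.9, 85.3 and 80.1 FPKM in wild type and 59.9, 63.3, 68.1 and 70.01 FPKM in TRAMP. It fell, with a log2 difference of -0.26 (SE 0.05, adjusted p = 0.00692), and no TRAMP library reached the wild type range. The call ended with quantile normalization (-0.14, adjusted p = 0.0836) and with scaling that leaves out the 50 most abundant genes (-0.15, 0.067). For H2-Ke6, 61.6% of the 100-base stretches also occur in the overlapping gene model Gm20427, so its level is uncertain.

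At 16 weeks, with 1 wild type library, 20 of the 32 members rose and 2 fell, where 18.1% of all genes were called higher and 15.4% lower (33.6% in either direction). The member median was 0.84, against 0.02 over all genes. The order was like that at 24 weeks, with H2-Q5 at 3.33, H2-Q4 at 2.14, Psmb8 at 1.81, Psmb9 at 1.80, Nlrc5 at 1.66, Tap1 at 1.51, H2-K1 at 1.34 and H2-D1 at 1.31. H2-Q10 changed by -3.06 (SE 0.56, adjusted p = 0.00508). B2m rose by 0.75 (SE 0.18, adjusted p = 0.0146), a call that ended without TRAMP 16-week replicate 0 (0.67, adjusted p = 0.056). The 10 members that did not pass were the 7 class II chain and exchange genes, Ciita, Psme2 and H2-K2. The lone wild type library is assumed to vary like the replicated groups, and it holds the seminal vesicle transcripts named above, whose part in these results was not tested. Against the 24-week wild type libraries 24 members were called, among them all 22. No member passed for the difference of the TRAMP effect between the ages (0.366% of all genes did, 0.329% upward and 0.0374% downward; 2 members had an unadjusted p under 0.05, limma). H2-Q10 had the largest such difference, -1.66 (95% interval -3.35 to 0.03), and H2-K1 had -0.16 (-0.66 to 0.34).

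PEITC diet was compared with control diet in TRAMP mice to ask whether the compound changes these genes. No member passed at 24 weeks, at 16 weeks or for the mean of both ages, where 0%, 0.00748% and 0% of all genes did. At an unadjusted p under 0.05 (limma) there were 3 members at 24 weeks, 1 at 16 weeks and 1 for the mean, and the smallest adjusted p was 0.474, 0.47 and 0.735. No other tool was run on this comparison. The member medians were -0.03, 0.05 and -0.003, against 0.01, 0.01 and 0.001 over all genes.

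In PEITC libraries H2-K1 stood at 1522 and 1411 FPKM at 16 weeks and 1342 and 1475 FPKM at 24 weeks. H2-D1 stood at 266 and 283 FPKM at 16 weeks and 259 and 285 FPKM at 24 weeks. B2m stood at 1251 and 1338 FPKM at 16 weeks and 1258 and 1427 FPKM at 24 weeks. All PEITC values of these 3 genes lay within the range of the control-diet TRAMP libraries. For the mean of ages the difference was 0.03 for H2-K1 (95% interval -0.19 to 0.26), 0.03 for H2-D1 (-0.17 to 0.24) and -0.02 for B2m (-0.26 to 0.22). H2-Q4 stood at 122 and 122 FPKM at 16 weeks and 110.5 and 131 FPKM at 24 weeks. H2-Q5 stood at 24.1 and 15.2 FPKM at 16 weeks and 19.4 and 22.9 FPKM at 24 weeks. H2-Q10 stood at 14.5 and 13.7 FPKM at 16 weeks and 8.53 and 6.19 FPKM at 24 weeks, higher than control diet at 24 weeks (difference 0.99, 95% interval -0.08 to 2.05, adjusted p = 0.548) without passing. The 24-week PEITC values of H2-Q10 did not overlap the control-diet values at that age, and the 16-week values lay between those of the 16-week controls. H2-T23 stood at 376 and 427 FPKM at 16 weeks and 357 and 431 FPKM at 24 weeks. H2-T24 stood at 15.5 and 19.6 FPKM at 16 weeks and 12.9 and 21.7 FPKM at 24 weeks, and had the smallest unadjusted p at 16 weeks (difference 0.61, 95% interval 0.04 to 1.18, adjusted p = 0.470). Of the 4 PEITC values, 2 of H2-T23 and 3 of H2-T24 lay above every control-diet TRAMP library. H2-T10 stood at 6.299 and 5.81 FPKM at 16 weeks and 5.25 and 7.04 FPKM at 24 weeks. H2-Q1 stood at 11.03 and 7.92 FPKM at 16 weeks and 7.32 and 7.95 FPKM at 24 weeks. H2-Q2 stood at 31.5 and 31.6 FPKM at 16 weeks and 31.6 and 31.6 FPKM at 24 weeks. The 4 PEITC values of H2-Q2 were all inside the range of the control-diet libraries. H2-K2 stood at 3.54 and 4.07 FPKM at 16 weeks and 4.19 and 5.23 FPKM at 24 weeks.

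For peptide supply on PEITC diet, Tap1 stood at 54.8 and 53.7 FPKM at 16 weeks and 45.6 and 58.2 FPKM at 24 weeks. Tap2 stood at 65.3 and 71.3 FPKM at 16 weeks and 61.5 and 69.5 FPKM at 24 weeks, with a difference of -0.28 at 24 weeks (95% interval -0.47 to -0.09, adjusted p = 0.474). Both 24-week values of Tap2 were below both control values. Tapbp stood at 156 and 195 FPKM at 16 weeks and 173 and 182 FPKM at 24 weeks. Erap1 stood at 33.4 and 38.1 FPKM at 16 weeks and 31.5 and 33.1 FPKM at 24 weeks. For Tapbp and Erap1, 1 PEITC value each lay below every control-diet value and the others lay inside their range. Psmb8 stood at 122 and 134 FPKM at 16 weeks and 109.8 and 138 FPKM at 24 weeks. Psmb9 stood at 101 and 108 FPKM at 16 weeks and 84.0 and 109.9 FPKM at 24 weeks. Psmb10 stood at 55.7 and 64.1 FPKM at 16 weeks and 58.2 and 66.1 FPKM at 24 weeks, with a difference of -0.29 at 24 weeks (95% interval -0.58 to -0.01, adjusted p = 0.524). At 24 weeks both values of each of these 3 subunits except replicate 1 of Psmb9 were below both control values. Psme1 stood at 190.3 and 209 FPKM at 16 weeks and 205 and 227 FPKM at 24 weeks. Psme2 stood at 40.9 and 44.9 FPKM at 16 weeks and 41.1 and 47.6 FPKM at 24 weeks. Both 24-week values of Psme2 were below both control values at that age, while those of Psme1 reached into them. Nlrc5 stood at 4.63 and 4.097 FPKM at 16 weeks and 3.93 and 5.36 FPKM at 24 weeks. Ciita stood at 0.712 and 0.397 FPKM at 16 weeks and 0.6096 and 0.682 FPKM at 24 weeks. For Nlrc5 the difference over both ages was 0.10 (95% interval -0.15 to 0.34).

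Class II chains on PEITC diet were inside the wide range of the control-diet libraries. H2-Ab1 stood at 80.4 and 55.3 FPKM at 16 weeks and 70.4 and 95.3 FPKM at 24 weeks. H2-Aa stood at 79.5 and 61.3 FPKM at 16 weeks and 80.6 and 110.0 FPKM at 24 weeks. H2-Eb1 stood at 61.9 and 44.3 FPKM at 16 weeks and 57.9 and 76.1 FPKM at 24 weeks. No PEITC library of these genes lay outside the span of the 24-week controls. Cd74 stood at 117 and 103 FPKM at 16 weeks and 123 and 149.6 FPKM at 24 weeks. H2-DMb2 stood at 1.37 and 0.652 FPKM at 16 weeks and 0.803 and 1.63 FPKM at 24 weeks. H2-Ke6 stood at 65.2 and 62.5 FPKM at 16 weeks and 61.1 and 61.4 FPKM at 24 weeks, and at 24 weeks its difference was -0.17 (95% interval -0.30 to -0.04, adjusted p = 0.474). Both 24-week values of H2-Ke6 were below both control values. For H2-Ab1 the difference over both ages was 0.04 with a 95% interval of -0.71 to 0.78, so differences within that interval could not be told from none. No member passed for a difference of the PEITC effect between the ages (0.00748% of all genes passed; 2 members had an unadjusted p under 0.05, limma; smallest adjusted p = 0.306).

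**Figure D4:**
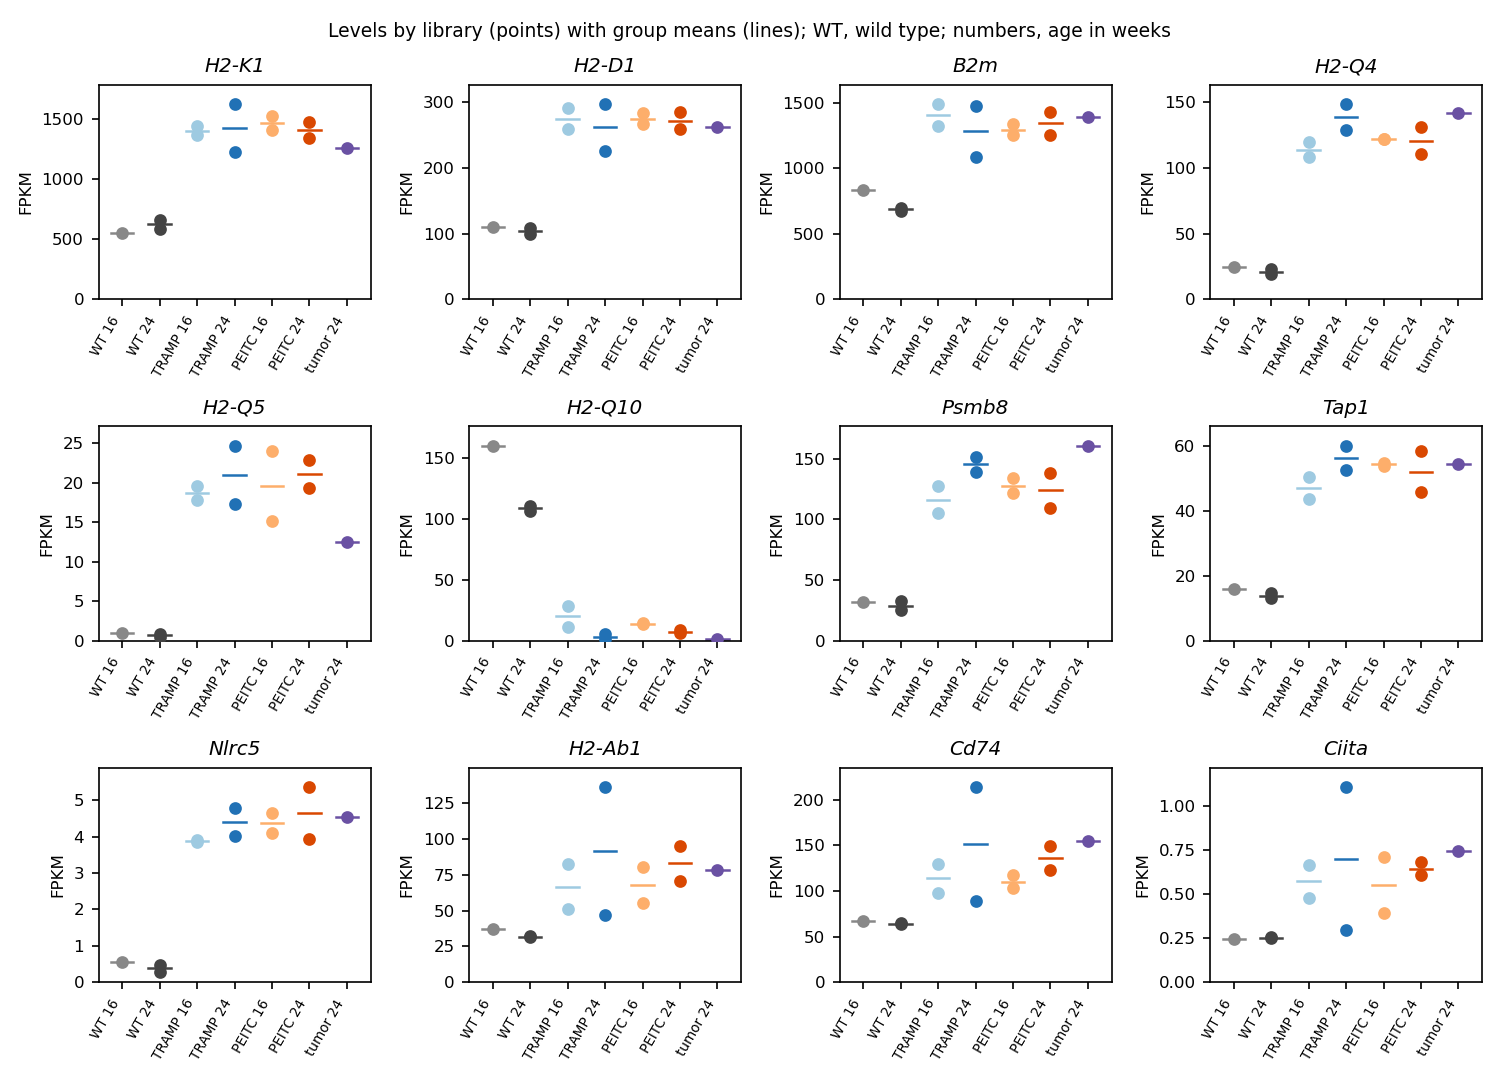
FPKM (y axes, each from 0) of 12 members by library (points) and group mean (lines); WT is wild type, PEITC groups are TRAMP, numbers are ages in weeks and the tumor is 1 library. Class I genes and the immunoproteasome gene Psmb8 sit on a low wild type level and a higher level shared by control-diet and PEITC prostates. H2-Q10 runs the other way, from 107 to 160 FPKM in wild type to at most 28.7 FPKM in TRAMP prostates, and H2-Ab1, Cd74 and Ciita spread most at 24 weeks on control diet.

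Age was compared within TRAMP mice. Between 24 and 16 weeks on control diet no member passed (0.00748% of all genes did; 5 members had an unadjusted p under 0.05, limma; smallest adjusted p = 0.178). H2-Q10 had the largest difference, -2.22 (SE 0.46, adjusted p = 0.178), with both 24-week values below both 16-week values. Without 24-week replicate 2 it was -2.86 and passed (adjusted p = 0.0262), with 1 library left in that arm, whose spread is taken from the other groups. Tap2 (0.35, adjusted p = 0.178) and Psmb10 (0.38, adjusted p = 0.221) were higher at 24 weeks in each library but did not pass. On PEITC diet no member passed either (0% of all genes did, and 0 members had an unadjusted p under 0.05, limma), and H2-Q10 was at -0.86 there (95% interval -1.93 to 0.20).

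The tumor library was compared with 24-week TRAMP prostates on control diet. Of the 32 members 2 were lower and 0 higher, where 6.17% of all genes were called lower and 5.59% higher (11.8% in either direction). H2-Q2 stood at 18.2 FPKM in the tumor, against 29.8 and 32.4 FPKM in the prostates, a log2 difference of -0.74 (SE 0.08, adjusted p = 0.00396) that brings it below the wild type range. H2-Ke6 stood at 53.2 FPKM and fell by 0.37 (adjusted p = 0.0151). With 1 tumor library the error comes from the other groups, and with only the groups compared neither passed (adjusted p = 0.122 and 0.178). The tumor had 1261 FPKM of H2-K1, 263 of H2-D1, 1390.3 of B2m and 142 of H2-Q4, each inside the range of the TRAMP prostates. H2-T23, at 317 FPKM, was below that range and above wild type. H2-K1 differed from the 24-week prostates by -0.16 (95% interval -0.55 to 0.23). The transporter and loading genes stood at 54.4 FPKM for Tap1, 76.3 for Tap2, 209 for Tapbp and 26.8 for Erap1. Proteasome genes stood at 161 FPKM for Psmb8, 103 for Psmb9, 94.4 for Psmb10, 287 for Psme1 and 63.8 for Psme2. For Tapbp, Psmb8, Psmb10, Psme1 and Psme2 the tumor was the highest of the 12 libraries, although none of these differences passed. H2-Q5 was low for a TRAMP library, at 12.5 FPKM, as was H2-T24, at 8.51 FPKM, both below each TRAMP prostate, as was Erap1. H2-T10 stood at 5.13, H2-Q1 at 7.41 and H2-K2 at 3.89 FPKM, and H2-Q10 at 1.88 FPKM. Nlrc5 was at 4.53 and Ciita at 0.746 FPKM. Class II genes in the tumor, with 78.3 FPKM of H2-Ab1, 86.3 of H2-Aa, 60.3 of H2-Eb1, 154 of Cd74 and 1.196 of H2-DMb2, lay between the 24-week prostates. Its macrophage markers summed to 330.3 FPKM and its pan-leukocyte genes to 43.6 FPKM, inside the range of the TRAMP prostates. The sum of its dendritic cell markers, at 16 FPKM, was above that range, with 8.17 FPKM from Batf3 alone. Batf3, Itgax, Zbtb46 and Ccr7 were each above the TRAMP prostates, whereas Flt3, Xcr1, Clec9a and Cd209a were inside their range.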

How the data were processed

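The authors deposited 1 table of FPKM values per library for 12 libraries, with a gene symbol per row. Per the submitters' processing notes, HISAT2, Picard, featureCounts and DESeq2 were used with mm10; no versions or roles are stated. Annotation and the handling of reads that match several genes were not given in the sources used here. Read depth is unknown, and relative depth was estimated from the steps of low values. No count test was run.

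From these values, log2(FPKM + 1) was fitted with limma 3.58.1 (R 4.3.3), with 1 mean per group, over genes that averaged 0.5 FPKM or more. The fit had 5 residual degrees of freedom and used empirical Bayes with a trend, and p-values were adjusted by Benjamini-Hochberg over all genes tested. A gene was called at an adjusted p under 0.05. Intervals are 95% intervals from the same fit. Groups were taken from the sample labels. Values in every library are given for members with a mean of at least 20 FPKM, for Nlrc5 and Ciita, and for members called with a log2 fold change of at least 1 in either direction; others are given by ranges. The members and lists were chosen with earlier results of these data known. Motifs, shared stretches, Alb and Apoa1 were chosen after values were seen. Alternatives were other pseudocounts, filters and scalings, a replicate block, only the groups compared, another wild type age and leaving out each library. Scripts were tested on simulated data. Promoters came from RefSeq (GRCm38.p6), and gene positions from GENCODE M21 on the same build. No sequence is shown for Cd74.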

Additional observations from a re-analysis of the deposited data

How the results depend on the processing

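No member changed sign with a call under any alternative. The number of members called for TRAMP against wild type ranged from 24 to 32 at 24 weeks and from 20 to 23 at 16 weeks when each library was left out, against 28 and 22. Each fit without a library leaves 1 library in a group, whose spread is taken from the other groups. At 24 weeks the number was 25 with quantile normalization and 29 with scaling that leaves out the 50 most abundant genes. That scaling moved the share of calls that were higher, over all genes, from 51.1% to 66.6% at 24 weeks and from 54.1% to 70.3% at 16 weeks, where the median of all genes became 0.12. For the tumor, 2 members were called, 1 with a replicate block and 0 with only the groups compared. For 24 against 16 weeks on control diet the count ranged from 0 to 1 when each library was left out, with 1 without TRAMP control 24-week replicate 2.

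Same-numbered libraries did not deviate together throughout: between groups that share both numbers the correlations ran from -0.31 to 0.282, so the numbers were not taken to pair the libraries. With a replicate block 24 members were called at 24 weeks and 23 at 16 weeks. Nlrc5, H2-Q5 and other members under a few FPKM in wild type change in size with the pseudocount. Read depth could not be used to set intervals on single values, and the number of libraries limits the precision.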
